A study of Rattus norvegicus with 79 samples.

Results

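Potassium and sodium channel genes were followed across 79 microarrays of rat hippocampal CA1, the arrays of a study of ageing and spatial learning. A gene was a member when the annotated symbol of a probe set began with Kcn or Scn and the probe set carried that 1 symbol only. Symbols were updated through the gene ID after this choice. This gave 102 probe sets of 67 genes, among 8740 probe sets of 4736 genes on the array. The symbols reach beyond the voltage-gated channels: 15 of the genes are Kcnj inward rectifiers, 3 are Kcnk two-pore channels and 3 are Scnn1 epithelial sodium channel subunits, which the membrane voltage does not gate. Other classes hold the voltage-gated channels, though not every gene in them encodes one. They were 9 Kv1 and beta subunit genes, 6 Kv2 and silent subunit genes, 3 Kv3 genes and 2 Kv4 genes. They also took in 3 Kv7 and MinK-related genes, 8 EAG and ERG genes and 9 sodium channel alpha subunit genes. A further 5 genes encode calcium- or sodium-activated potassium channel subunits and 1, Scn2b, a sodium channel beta subunit.

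The animals were male Fisher-344 rats, young (3 months) or aged (24 months), 1 array per rat. The cell layer of CA1 was punched out of brain slices taken 24 hours after the last trial, and its RNA was amplified in 2 rounds before labelling. Cage controls did not swim (5 aged, 3 young), yoked controls swam with no platform (8 aged, 6 young), and others were trained to a visible platform (8 aged, 4 young) or a hidden one. Young hidden platform rats numbered 6, and aged ones were labelled unimpaired (13) or impaired (10) learners; a further 16 have a B in place of that label, with no meaning given for it, and are called B rats here.

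Voltage-gated sodium channels open within a fraction of a millisecond of depolarisation and carry the upstroke of the action potential, and voltage-gated potassium channels bring the membrane back. In CA1 pyramidal cells the Kv4.2 channel, encoded by Kcnd2, carries much of the A-type current of the dendrites, which limits how far action potentials and synaptic potentials spread, while Kv1 channels sit mainly on axons and set the firing threshold. Inward rectifiers hold the resting potential, and Kcnj11 and Kcnj8 encode the pores of channels that close when ATP is high.

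The values are MAS5 signals, a linear brightness per probe set that the authors had scaled so that each array has nearly the same trimmed mean. Of the member probe sets, 49 (41 genes) were tested, on log2(signal + 15), after the dimmest 40% of all probe sets by mean signal were left out; the other 53 have their levels only. The members nearest the limit outside it were Scn11a, Kcnh3 (AF073892_s_at) and Kcnc2 (M84203_s_at), with mean signals of 104, 109 and 113, and inside it Scn4a (D87922exon_at), Kcna5 and Kcnj10, with 126, 129 and 138. All 8 EAG and ERG genes, all 3 Kv3 genes and both Kv4 genes had a probe set that was tested, against 6 of 15 inward rectifiers, 4 of 9 Kv1 and beta genes and 7 of 9 sodium channel alpha genes. Kcna2, Kcnma1, Kcnn3, Kcnj3, Kcnj6 and Scn2b were below the limit, and no statement on their regulation is made.

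Quality varied between arrays. The median Spearman correlation of an array with the others ran from 0.223 to 0.940, and 14 arrays were below 0.85: 4 aged visible, 2 young cage, 2 young visible, 2 impaired and 1 each of aged cage, aged yoked, unimpaired and young hidden, with none among the B or young yoked rats. Counts are therefore given with and without these arrays. The CA1 pyramidal markers (7 genes) had summed signals of 4688 to 95933, with none at 0 anywhere. Values of 0 were rare for any probe set (46 in all), so this cannot show that the markers were present on every array. Camk2a, 1 of the 7, had a mean signal of 110 and was below the limit for testing. The spread of the members within groups (median pooled SD 0.70 in log2 units, 0.37 for Kcnc1 to 1.08 for Kcnf1) was near that of all probe sets tested (0.68). The punch holds several cell types, so fewer cells of a type and less RNA per cell cannot be told apart in any result. A call below is a Benjamini-Hochberg adjusted p under 0.05 over all 5244 probe sets in limma's moderated test, differences are in log2 units with the standard error, and arrays of 1 group are different rats.

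Promoters are shown for 4 genes on which the results turn: Scn2a and Scn8a, the pore subunits that differed in opposite directions between B and impaired rats, Kcnh8, whose difference in the same comparison held under every other processing tried, and Kcnd2, with the largest difference. They are RefSeq sequences of build GRCr8, 250 bases before to 50 after the gene start, written 5′ to 3′, with capitals for the GC box GGGCGG on either strand.
Scn2a promoter, chr3:70710706-70711005, + strand: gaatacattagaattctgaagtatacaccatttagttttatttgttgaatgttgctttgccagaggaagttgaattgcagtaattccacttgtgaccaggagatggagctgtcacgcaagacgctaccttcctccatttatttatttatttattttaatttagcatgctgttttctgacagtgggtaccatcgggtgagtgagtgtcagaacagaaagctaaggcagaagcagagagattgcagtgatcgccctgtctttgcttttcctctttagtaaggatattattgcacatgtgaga
Scn8a promoter, chr7:133860977-133861276, + strand: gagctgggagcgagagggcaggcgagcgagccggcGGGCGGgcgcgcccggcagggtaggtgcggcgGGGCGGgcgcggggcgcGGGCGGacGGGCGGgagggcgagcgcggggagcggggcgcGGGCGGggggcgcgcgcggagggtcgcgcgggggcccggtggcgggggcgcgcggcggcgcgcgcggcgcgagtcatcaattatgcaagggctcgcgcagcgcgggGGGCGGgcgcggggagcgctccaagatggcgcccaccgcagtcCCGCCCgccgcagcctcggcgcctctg
Kcnh8 promoter, chr9:5742433-5742732, + strand: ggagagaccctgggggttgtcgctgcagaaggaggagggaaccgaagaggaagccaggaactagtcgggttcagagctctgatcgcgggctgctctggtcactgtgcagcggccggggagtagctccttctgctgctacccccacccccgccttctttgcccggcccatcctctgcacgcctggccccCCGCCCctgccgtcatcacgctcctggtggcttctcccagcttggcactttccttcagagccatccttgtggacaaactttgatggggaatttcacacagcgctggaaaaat
Kcnd2 promoter, chr4:50742235-50742534, + strand: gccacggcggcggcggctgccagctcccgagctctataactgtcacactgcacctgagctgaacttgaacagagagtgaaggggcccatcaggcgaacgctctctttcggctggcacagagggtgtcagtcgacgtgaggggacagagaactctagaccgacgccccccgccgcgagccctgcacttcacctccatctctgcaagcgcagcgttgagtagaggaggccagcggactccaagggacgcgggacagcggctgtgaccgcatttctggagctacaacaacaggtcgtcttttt
Scn8a has 7 GC boxes in this window, Kcnh8 has 1, and Scn2a and Kcnd2 have none. A promoter was found for 51 of the 67 genes. Of these, 47.1% held GGGCGG, against 34.9% of 27457 promoters in the table; 3.92% held TATAAA against 14.3%, 25.5% CCAAT against 37.7%, and 0 of 51 the cyclic AMP element TGACGTCA against 1.91%, each searched on both strands. The median GC content of the members' windows was 61.7%, against 52.3% for all. It was 84.7% for Scn8a, 61.7% for Kcnh8 and for Kcnd2, and 39.3% for Scn2a.

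The first question of the design is how aged and young CA1 differ (44 aged without B rats, 19 young). Treatment (cage, yoked, visible or hidden platform) was an additive factor in that fit, with impaired and unimpaired rats both counted as hidden. One member was called: Kcnj11, the pore of the neuronal ATP-sensitive potassium channel, was higher in aged rats. This is 1 of 49 probe sets, where 5.13% of all probe sets tested were called. Among the members 19 were higher and 30 lower in aged rats, with a median difference of -0.05, the same to this precision as the median of all probe sets (-0.05). At an unadjusted p under 0.05 there were 9 members, or 5 higher and 4 lower, against 20.8% of all probe sets.

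The Kcnj11 probe set D86039_g_at had signals of 107 to 1064 (median 366) in young rats and 200.1 to 1056 (median 524) in aged ones. The ranges overlapped widely, and 38 of 44 aged rats were above the mean log2 value of the young rats of their own treatment. The difference was 0.58 ± 0.17 (adjusted p = 0.0275, limma). It had the same sign in each treatment, at 0.70 ± 0.44 in cage controls, 0.90 ± 0.32 in yoked, 0.53 ± 0.37 in visible and 0.32 ± 0.27 in hidden platform rats. The other Kcnj11 probe set, D86039_at, gave 0.14 ± 0.15 (adjusted p = 0.681), with medians of 1567 in young and 1815 in aged rats. The call was lost under quantile normalization and median centring. It was also lost without young hidden rat 2, young yoked rat 58, young yoked rat 60 or young visible rat 65 (0 member calls each). Without 1 of these rats 172 to 217 of all probe sets were called, against 269 with all arrays. The Kcnj11 call was kept without the 14 low-correlation arrays, at 0.66 ± 0.16 (adjusted p = 0.00418 in limma, range over the alternatives 0.00029 to 0.105).

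Without those 14 arrays 9 members were called in the age comparison (13.9% of all probe sets), 5 higher (7.36% of all) and 4 lower (6.5% of all) in aged rats. All 9 had the same sign with all arrays. Higher were Kcnj11, Kcnd2 (0.45 ± 0.15), Kcnk1 (0.44 ± 0.14), Kcnh3 (0.57 ± 0.16) and Kcnab2 (0.48 ± 0.14). Kcnk1 encodes the leak channel TWIK-1, Kcnh3 a forebrain channel of the EAG family, and Kcnab2 a cytoplasmic beta subunit of Kv1 channels. Lower were Kcnd3 (-0.78 ± 0.26), the second Kv4 gene, Kcna5 (-0.78 ± 0.24), a Kv1 pore, Kcnh6 (-0.59 ± 0.18), an ERG channel, and Kcnc4 (-0.51 ± 0.18), a Kv3 pore of fast inactivation.

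Their adjusted p-values in that limma fit ran from 0.00418 to 0.0485. Kcnk1 signals had a median of 182 in 14 young rats (97.3 to 268) and of 250.1 in 35 aged ones (130 to 612). Kcnh3 signals had medians of 1799 (871 to 3926) in young and 2514 (972 to 5245) in aged rats, and Kcnab2 of 3033 (2094 to 5668) and 3855 (2544 to 8015). Every one of these pairs of ranges overlapped. Kcnd3 signals had a median of 185 in young rats (38.6 to 299.9) and 63.6 in aged ones (23.9 to 310.3), and Kcnc4 of 233 (81.4 to 306) and 138 (49.2 to 270.4), again with overlap.

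Second probe sets were weaker for 3 of the genes that were higher. Kcnab2 by X76724_at gave 0.14 ± 0.12 (adjusted p = 0.460, limma), Kcnd2 by S64320_at -0.11 ± 0.13 and Kcnj11 by D86039_at 0.25 ± 0.11, all without the 14 arrays. The age shift of the Kcnd2 gene thus had opposite signs at its 2 probe sets.

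Cell type markers moved with age in the same fit. Astrocyte markers were higher at 8 of 8 tested genes, 4 of them called (median 0.28), with summed signals of 30350 to 50028 in young and 32527 to 66270 in aged rats. Interneuron markers were lower at 6 of 9 (median -0.29). Gad1 (-0.50 ± 0.13), Sst (-0.61 ± 0.17), Npy (-0.54 ± 0.15) and Calb2 (-0.41 ± 0.14) were called lower and Gad2 (0.50 ± 0.18) higher, with sums of 12343 to 23528 in young and 9174 to 16905 in aged rats. Microglia markers were higher at 6 of 7, 2 of them called (median 0.28), with sums of 4926 to 9363 and 4650 to 11577. CA1 pyramidal markers were higher at 4 of 6 (median 0.15), with Pou3f1 (-0.51 ± 0.18) called lower, and sums of 33744 to 47416 and 27675 to 90955. Oligodendrocyte markers were higher at 4 of 9 (median -0.07), with Mbp (1.28 ± 0.39) called higher and Mal (-0.55 ± 0.17) lower. Their sums were 8315 to 24289 in young and 7581 to 33598 in aged rats. The summed ranges overlapped for each of these lists, no list gene was at 0 on any array, and their part in the channel results was not tested.

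**Figure D1:**
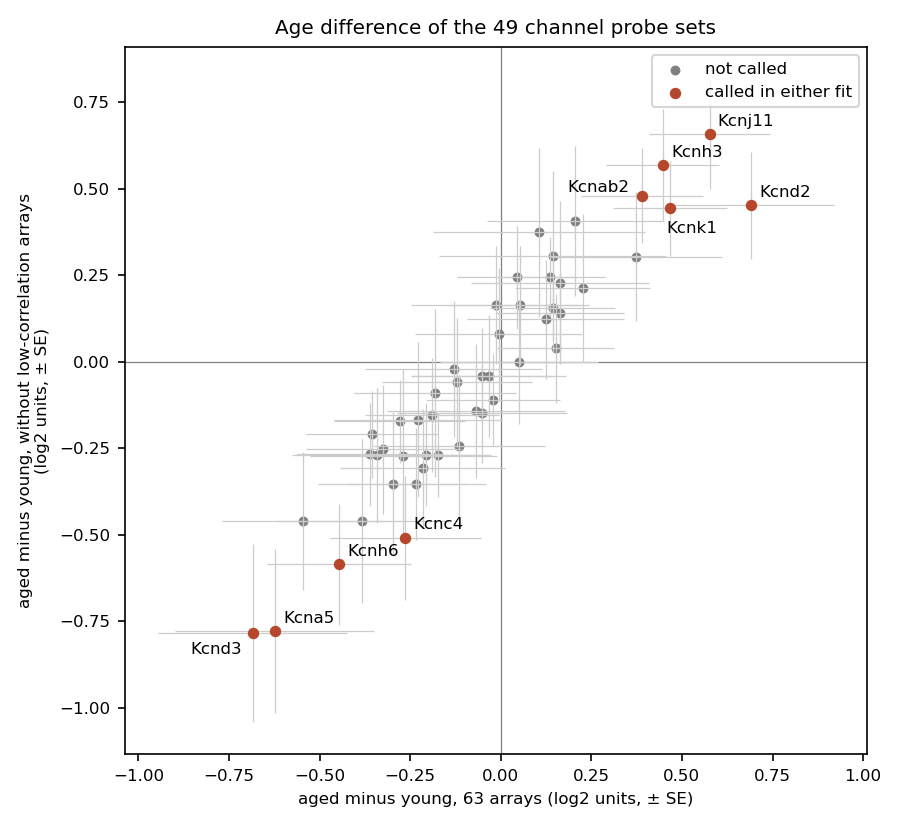
Age difference of the 49 tested channel probe sets. The horizontal axis gives aged minus young over all 63 arrays and the vertical axis the same without the low-correlation arrays, both in log2 units with standard errors as grey lines; red points were called in either fit. The 9 named genes lie at the ends of one diagonal cloud, with Kcnj11 at 0.58 and 0.66 and Kcnd3 at -0.68 and -0.78.

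Among cage controls, aged and young rats were compared without any swimming. Of the 49 members 2 were called, where 17% of all probe sets were. Kcnd2 (M59980_s_at) was higher in aged rats (1 member, 9.84% of all) and Kcnj1 (S78154_at), the ROMK inward rectifier best known from kidney, was lower (1 member, 7.11% of all). At an unadjusted p under 0.05 there were 11 members and 32.2% of all probe sets. Members were mostly lower in aged cage rats (36 of 49, median -0.55), as were all probe sets (median -0.27); centring each array on its median moved the median of all up by 0.29, to 0.01, and 19 members were then higher.

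The Kcnd2 probe set M59980_s_at read 74.1, 334.4 and 65.1 in the young cage rats 70, 74 and 76. The 5 aged cage rats read 854.6, 920.7, 1815.4, 1872.1 and 1242.6. The groups did not overlap. The difference was 3.25 ± 0.49 (adjusted p = 4.36e-05, limma), and it passed the threshold in each of 10 alternatives and without each array in turn, at its smallest 1.74 with 1 young array left.

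The second Kcnd2 probe set did not show this. S64320_at read 1359.1, 1562.9 and 905.5 in the young cage rats and 811.3, 773.1, 1398.7, 1601.2 and 780.4 in the aged ones, which overlapped. Its difference was -0.28 ± 0.48 (adjusted p = 0.699 over the 5244 probe sets tested in limma), the opposite sign. On the young cage arrays 70 and 76 and on young visible 65, aged yoked 63 and impaired 83, M59980_s_at had its 5 lowest signals of all 79 (65.1 to 287.6). Those 5 arrays also had 5 of the 6 lowest 3′ to 5′ signal ratios of the beta-actin and GAPDH control probe sets (log2 -0.31 to 0.51), and all 5 are among the 14 low-correlation arrays. The mean ratio was 1.07 ± 1.39 (SD, n = 3) in young cage rats and 3.70 ± 0.93 (SD, n = 5) in aged cage rats, and with the ratio as covariate the cage difference of M59980_s_at was 2.16 (adjusted p = 0.00583 in limma, range over the alternatives 1.39e-12 to 0.0192).

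**Figure D2:**
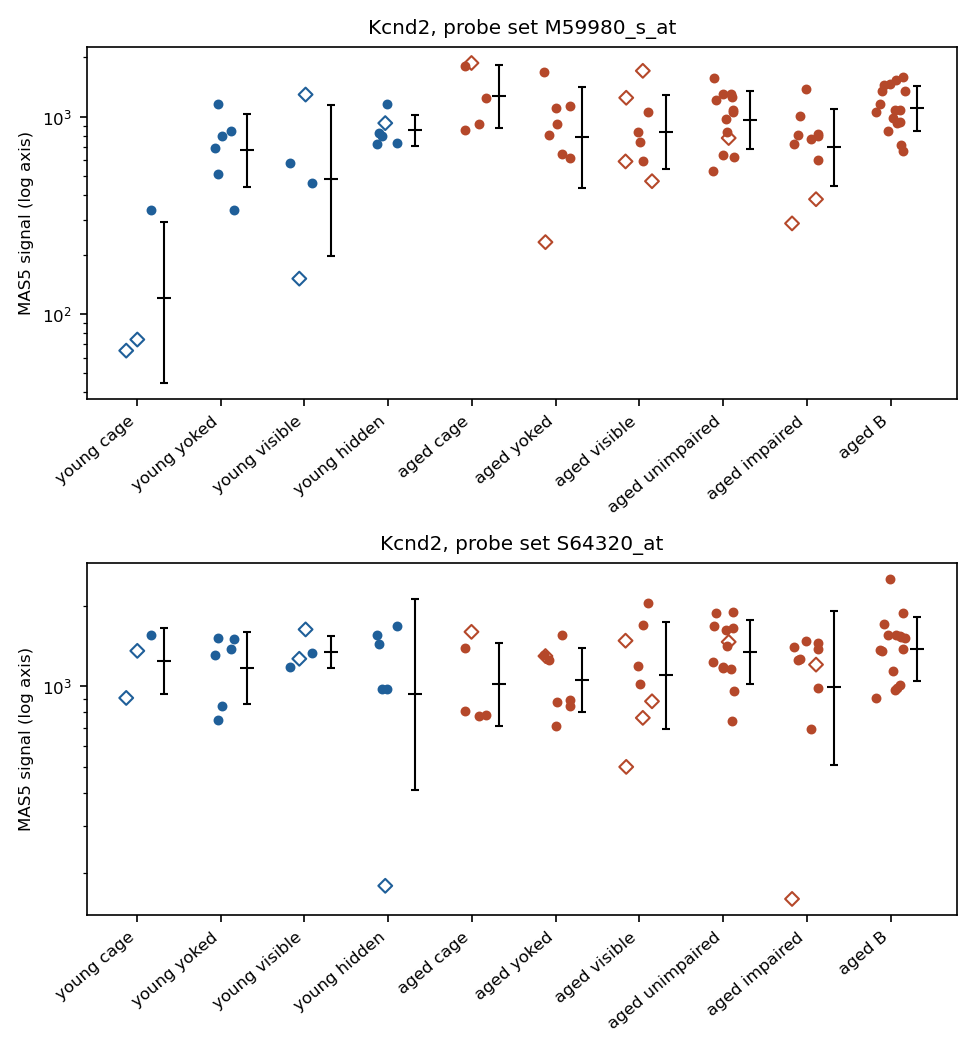
Signals of both Kcnd2 probe sets by group, on log axes. Points are single rats, open diamonds the 14 low-correlation arrays, and black bars the mean ± SD of the log2 values turned back into signals; M59980_s_at is lowest in young cage rats (65.1 to 334.4), while S64320_at there reads 905.5 to 1562.9.

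Kcnj1 by S78154_at read 656.7, 391.3 and 1562.7 in the young cage rats and 260.2, 188.6, 295.5, 109.5 and 243.5 in the aged ones, with no overlap. The difference was -1.76 ± 0.50 (adjusted p = 0.0111, limma). The 2 young cage arrays of low correlation held its highest values, and without the low arrays, with 1 young cage rat left, it was -0.65 ± 0.52 (adjusted p = 0.509, range over the alternatives 0.000168 to 0.509). The call was also lost with the 3′ to 5′ ratio as covariate, at -1.14 (adjusted p = 0.236), and without young cage rat 76 alone, and the second Kcnj1 probe set gave -0.57 ± 0.55 (adjusted p = 0.481).

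Markers of other cell types differed between the same cage rats. Oligodendrocyte markers had a median difference of 1.09 (5 of 9 higher in aged rats), with Mbp (4.61 ± 1.13) and Mog (1.40 ± 0.44) called higher and Gjb1 (-1.46 ± 0.46) lower, and summed signals of 6245 to 8315 in young and 7634 to 27759 in aged cage rats. Astrocyte markers were higher at 7 of 8 (median 0.86, Aldoc called at 3.62 ± 0.92), with sums of 7277 to 43484 in young and 44296 to 66270 in aged cage rats, which did not overlap. C1qb of microglia (2.19 ± 0.59), Itpka of pyramidal cells (3.78 ± 1.08) and the interneuron gene Gad2 (1.65 ± 0.50) were called higher. Called lower were Gad1 (-1.56 ± 0.44), Sst (-1.61 ± 0.53) and endothelial Slc2a1 (-1.67 ± 0.58). Over their whole lists, CA1 pyramidal markers were higher at 4 of 6 (median 0.34) and interneuron markers at 4 of 9 (median -0.09). Without the 14 arrays, with 1 young cage rat left, the astrocyte median was 0.10 and the oligodendrocyte median 0.53 (Mbp 4.99 ± 1.17). CA1 pyramidal markers were then higher at 2 of 6 (median -0.22) and interneuron markers at 4 of 9 (median -0.19). Their part in the Kcnd2 and Kcnj1 differences was not tested.

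Without the 14 arrays 4 members were called between aged and young cage rats (10.5% of all): Kcnd2 and Kcnk1 (1.41 ± 0.46) higher, Scn2a (-2.38 ± 0.61) and Kcnc2 (-2.31 ± 0.65) lower in aged rats. The young cage group was then rat 74 alone, assumed to vary like the other groups. For Scn2a, the sodium channel pore of axon initial segments, that rat read 3465.1, the highest of all 79 arrays, against 949.8 and 335.7 in the other young cage rats and 372 to 767.7 in the aged ones.

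Age differences in yoked, visible and hidden platform rats gave 0 member calls each in limma, where 0%, 0.0381% and 0% of all probe sets were called. At an unadjusted p under 0.05 there were 2, 0 and 1 members, against 7.8%, 6.88% and 2.02% of all. The 3 smallest were, in yoked rats, Kcnj11 (0.90 ± 0.32), Scn1a (-0.79 ± 0.39) and Kcna4 (0.79 ± 0.45). In visible platform rats they were Kcna1 (-0.95 ± 0.49), Kcnh3 (0.64 ± 0.34) and Kcnd2 (0.77 ± 0.41), and in hidden platform rats Kcnd3 (-0.94 ± 0.43), Scn9a (0.66 ± 0.39) and Kcnh6 (-0.53 ± 0.33). Without the 14 arrays Kcnj11 was called in yoked rats (1 member, 6.5% of all), and in visible and hidden platform rats 0 members were (0.0191% and 0% of all), with 2 and 4 members at an unadjusted p under 0.05 against 9.32% and 6.39% of all.

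The age difference depended on treatment for 1 member, Kcnd2 by M59980_s_at (adjusted p = 0.00711 for the interaction in limma; 0.305% of all probe sets). Its age difference was 3.25 in cage, 0.22 in yoked, 0.77 in visible and -0.02 in hidden platform rats. The call was lost without young cage rat 70 or 76, without the 14 arrays, under both scaling alternatives and once the 3′ to 5′ ratio was added as covariate (0 members without the 14 arrays, 1.51% of all). At an unadjusted p under 0.05 there were 3 members and 14.3% of all probe sets.

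Training was compared with its controls within each age. In young rats the hidden platform group exceeded cage controls for Kcnd2 by 2.68 ± 0.52 (adjusted p = 0.0120, limma), the 1 member called where 5.28% of all were; at an unadjusted p under 0.05 there were 8 members and 23.8% of all. The 6 young hidden rats read 723.5 to 1165.7 (median 813) against the young cage signals above, without overlap. The comparison shares those cage rats with the age comparison, and S64320_at gave -0.40 ± 0.50 (adjusted p = 0.632). The call was lost without young cage rat 70 or 76, with the 14 arrays left out (0 members, 0.133% of all; at an unadjusted p under 0.05, 6 members against 13.5% of all) and with the 3′ to 5′ covariate. In the same comparison Mbp (4.70 ± 1.01), Itpka (3.75 ± 1.02) and Aldoc (3.16 ± 0.87) were called higher and Slc2a1 (-2.33 ± 0.58) lower in young hidden rats. The CA1 pyramidal markers, Itpka among them, were higher at only 2 of 6 tested genes. Their median was -0.26, and -0.54 without the 14 arrays. Median differences were 0.90 for oligodendrocyte markers (5 of 9 higher; sums of 6236 to 24289 against 6245 to 8315 in young cage rats) and 0.48 for astrocyte markers (7 of 8 higher; 20449 to 46895 against 7277 to 43484), and their part was not tested.

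No member was called between young hidden and visible or yoked rats, or between aged hidden rats (unimpaired and impaired averaged) and visible, yoked or cage controls; limma called 0%, 0%, 0.0191%, 0% and 0% of all probe sets, and 2, 0, 5, 1 and 2 members had an unadjusted p under 0.05, against 5.23%, 1.77%, 11.4%, 2.96% and 8.56% of all. In young rats the smallest were Kcnj10 (-1.02 ± 0.41), the inward rectifier of astrocytes, Scn9a (-1.15 ± 0.52) and Kcnh2 (0.84 ± 0.43) against visible, and Kcnh2 (0.63 ± 0.38), Kcna1 (0.72 ± 0.64) and Kcnh4 (0.49 ± 0.51) against yoked. In aged rats they were Kcna1 (0.87 ± 0.29), Scn7a (-0.72 ± 0.26) and Kcnmb1 (-0.77 ± 0.28) against visible, Scn1a (0.74 ± 0.29), Kcnmb1 (-0.57 ± 0.28) and Kcnh3 (-0.41 ± 0.23) against yoked, and Scn2a (1.02 ± 0.37), Kcnd2 (-0.62 ± 0.30) and Kcnj15 (0.78 ± 0.43) against cage.

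Without the 14 arrays Scn2a was called against cage in aged rats (1.12 ± 0.30, adjusted p = 0.0457 in limma, range over the alternatives 0.0326 to 0.962; 1.33% of all probe sets). The 4 aged cage rats then read 557.7 to 767.7, and the hidden platform rats had medians of 1600 (unimpaired, 711 to 2623) and 1364 (impaired, 683 to 2184), with overlap.

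Impaired and unimpaired aged learners, which the labels separate, differed in 0 members and in 0% of all probe sets in limma. At an unadjusted p under 0.05 there were 10 members, 8 of them higher in impaired rats, against 12.9% of all; without the 14 arrays there were 0 calls, and 8 members had an unadjusted p under 0.05, against 13.4% of all. Members were higher in impaired rats at 36 of 49 probe sets (53.2% of all), with a median of 0.30 against 0.04 for all. Median centring moved the median of all by -0.33, to -0.28, and 23 members were then higher. The difference went with brightness, at a rank correlation with mean signal of -0.69 over members and -0.67 over all 5244 probe sets. Without the 14 arrays these were -0.43 and -0.32. The 24 dimmer members had a median of 0.48, against 0.38 for all probe sets of that range. For the 25 brighter members it was 0.16, against -0.13. The smallest p-values belonged to Kcnj1 (AF081365_s_at, 0.88 ± 0.31), Scn8a (0.72 ± 0.26) and Kcnh4 (0.76 ± 0.31), each with an adjusted p of 0.312 to 0.325. Scn8a signals in impaired rats were 204 to 498 (median 269.9) and in unimpaired rats 78.3 to 342 (median 173); all 10 impaired rats were above the unimpaired mean, and the ranges overlapped.

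B rats differed from impaired rats in 9 of 49 member probe sets, where 12% of all were called; 2 were higher in B rats (5.8% of all) and 7 lower (6.2% of all). At an unadjusted p under 0.05 there were 20 members and 32.1% of all probe sets. Higher were Scn2a (0.88 ± 0.28) and Kcnd2 (M59980_s_at, 0.64 ± 0.23). Lower were Kcnh8 (-1.10 ± 0.29) and Kcnh4 (-0.78 ± 0.26), slowly activating channels of the EAG family; Scn8a (-0.77 ± 0.23) and Scn9a (-0.98 ± 0.32), sodium channel pores; Kcnj8 (-1.07 ± 0.33) and Kcnj1 (AF081365_s_at, -0.84 ± 0.28), inward rectifiers; and Kcna4 (X16002cds_s_at, -0.97 ± 0.32), the A-type pore of the Kv1 family. Their adjusted p-values in limma ran from 0.0136 (Kcnh8) to 0.0497 (Kcnd2). The Kcnd2 call was the one nearest the threshold, and was lost in 6 of 10 alternatives and in 37 of 60 fits that left out 1 array, many of them arrays of neither group. Kcnh4 lost its call in 6 of 10 alternatives and 13 of 60 such fits, Kcnh8 in 0 of 10 and 2 of 60, and Scn8a in 2 of 9 and 1 of 60. Kcnj1 lost it in 4 of 9 and 12 of 60, Scn9a in 4 of 9 and 11 of 60, and Kcna4 in 3 of 9 and 11 of 60. For Scn2a it was 3 of 10 and 4 of 60, and for Kcnj8 2 of 9 and 3 of 60.

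Kcnh8 read 93.1 to 1029.7 (median 259) in impaired rats, 94.1 to 602 (median 184) in unimpaired and 64.2 to 217.3 (median 161) in B rats. All 16 B rats were below the impaired mean, and the ranges overlapped. Scn8a, the pore of most nodes of Ranvier, read 105 to 256.3 (median 161) in B rats against the 204 to 498 of impaired rats, overlapping only between 204 and 256. Kcna4 read 16.9 to 169.7 (median 86.5) in B and 61.9 to 369.5 (median 163) in impaired rats. Scn2a read 566.4 to 2894 (median 1874) in B, 159 to 2184 (median 1255) in impaired and 711 to 2623 (median 1531) in unimpaired rats, so the lowest impaired arrays set much of its range.

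**Figure D3:**
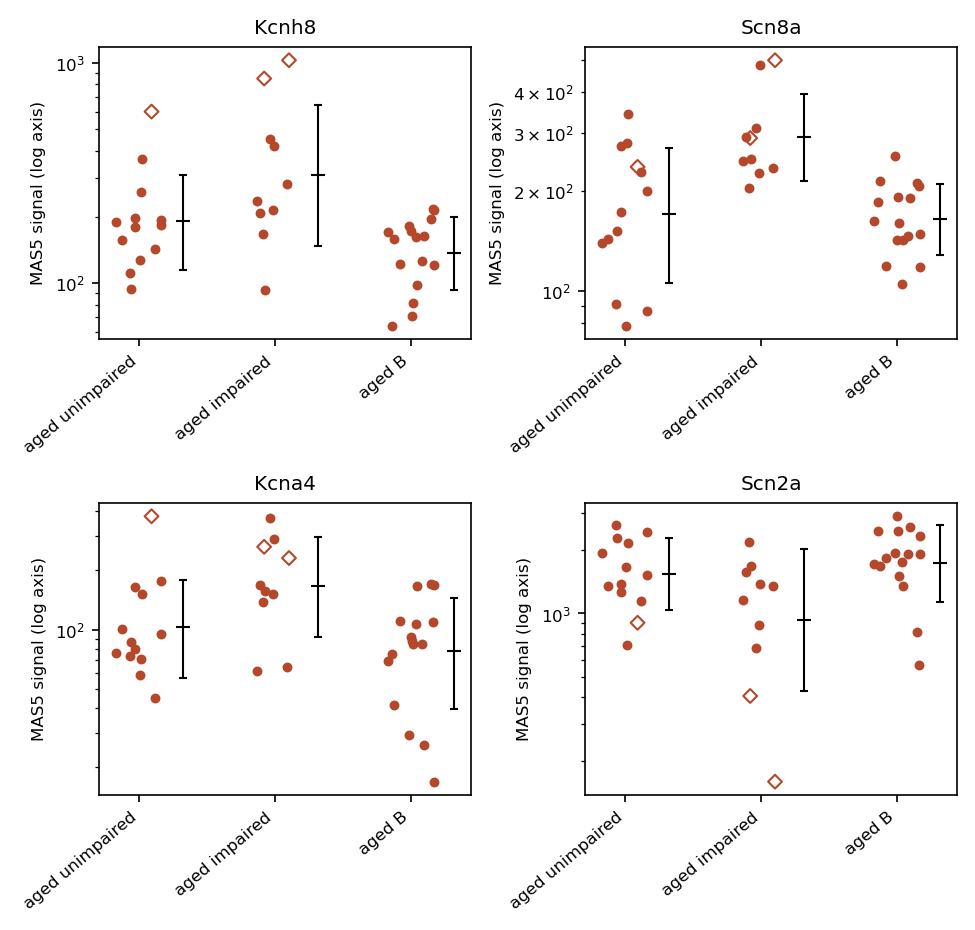
Signals of Kcnh8, Scn8a, Kcna4 (X16002cds_s_at) and Scn2a in aged hidden platform rats, by learner label, on log axes. Points are single rats, open diamonds low-correlation arrays and black bars mean ± SD of the log2 values turned back; for Scn8a the B rats (105 to 256.3) lie mostly under the impaired rats (204 to 498), and for Scn2a the lowest impaired values are the open diamonds.

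The low arrays weigh on this comparison. Impaired rats 8 and 83 correlate with the other arrays at 0.445 and 0.223. Without rat 83 there was 1 member call (Scn8a) and without rat 8 there were 0, against 9 with both. Calls over all 5244 probe sets fell as well, from 629 with both to 187 without rat 83 and 201 without rat 8. Without all 14 arrays 4 members were called (9.34% of all). Kcnh8 (-0.72 ± 0.22), Scn8a (-0.68 ± 0.19) and Kcna4 (-0.83 ± 0.28) were lower in B rats (3 members, 4.77% of all) and Kcna1 (0.79 ± 0.26) higher (1 member, 4.58% of all). The other 6 kept their sign, among them Scn2a at 0.43 ± 0.24 (adjusted p = 0.242 in limma, range over the alternatives 0.0172 to 0.242).

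The direction of a member went with its brightness. Of the 24 dimmer members 1 was higher in B rats (median -0.61, against -0.42 for all probe sets of that range), and of the 25 brighter ones 11 were (median -0.01, against 0.17). The rank correlation of difference and mean signal was 0.67 over the 49 members and 0.60 over all 5244 probe sets, and 0.44 and 0.21 without the 14 arrays; these probe sets share the same rats and are no independent replicates. Median centring moved the median of all up by 0.39 and gave 7 higher calls (Kcnj11, Scn2a, Scn3a, and both probe sets of Kcna1 and Kcnd2), where 17.9% of all probe sets were called higher, and 2 lower (Kcnh8, Kcnj8), where 2.14% were. Quantile normalization moved it up by 0.21 and gave 1 higher (Scn2a; 6.14% of all) and 1 lower (Kcnh8; 1.85% of all). Calls over all probe sets were near balance as deposited (5.8% higher, 6.2% lower) and mostly higher under both scalings. The member calls had leaned lower as deposited (2 higher, 7 lower). The direction of each of the 9 genes above was the same under every alternative tried; the number higher among the 49 was 12 as deposited, 25 after quantile normalization and 29 after centring.

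**Figure D4:**
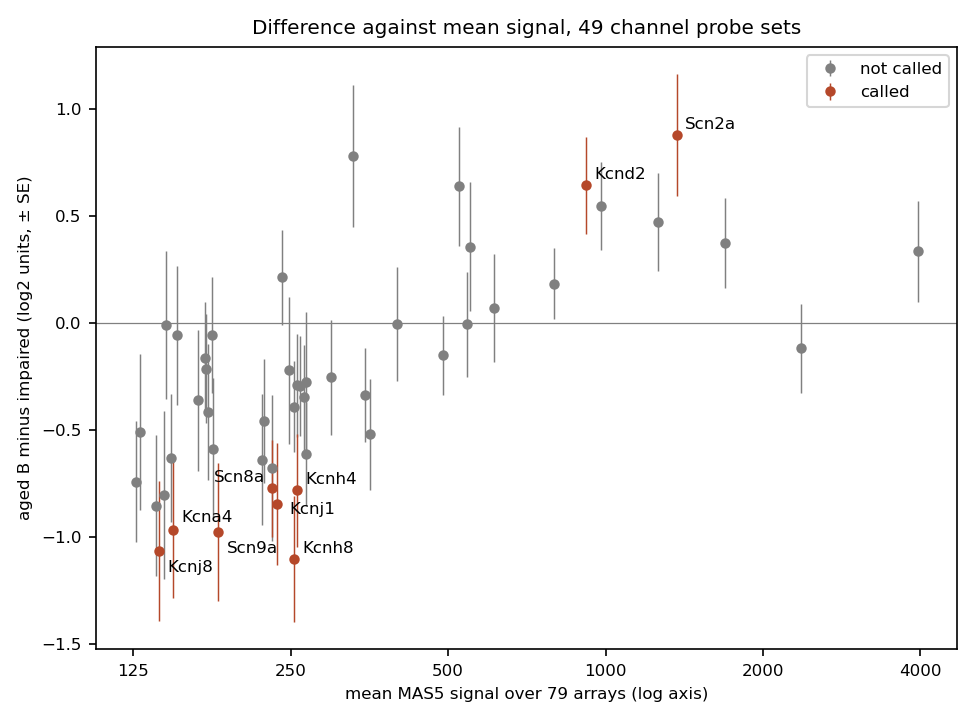
Difference between B and impaired rats (log2 units, ± SE) against the mean signal of each of the 49 tested channel probe sets on a log axis, with called probe sets in red. The 7 lower calls all have mean signals below 260 and the 2 higher calls, Kcnd2 and Scn2a, lie at 918 and 1367.

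The called genes Kcna4, Kcnj1 and Kcnd2 each had a second tested probe set that was not called. Kcna4 by M32867_at gave -0.29 ± 0.24, Kcnj1 by S78154_at -0.0035 ± 0.26 (adjusted p = 0.993), and Kcnd2 by S64320_at 0.47 ± 0.23 (adjusted p = 0.141), all in limma; the Kcnd2 value is within 1 SE of that of M59980_s_at. Of the other genes with 2 tested probe sets, Kcna1 (0.64 ± 0.28 and 0.78 ± 0.33), Scn4a (-0.74 ± 0.28 and -0.22 ± 0.34) and Kcnh2 (-0.01 ± 0.25 and -0.16 ± 0.26) had 1 sign at both, and Kcnab2 (0.34 ± 0.24 and -0.61 ± 0.24) and Kcnj11 (0.38 ± 0.21 and -0.15 ± 0.18) opposite signs. Genes that lie next to each other on a chromosome in RefSeq gave the following values side by side. Scn3a and Scn2a gave 0.55 ± 0.20 (adjusted p = 0.0642, limma) and 0.88 ± 0.28 for B minus impaired rats, and gave -0.50 ± 0.22 and -0.71 ± 0.31 for impaired minus unimpaired rats. Of Scn1a, Scn9a and Scn7a, neighbours in that order, Scn9a was called for B minus impaired rats, and Scn1a and Scn7a gave -0.25 ± 0.27 and -0.29 ± 0.23.

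Cell type markers moved as well. CA1 pyramidal markers were higher in B than in impaired rats at 6 of 6 tested genes (median 0.51; 0 called in limma, 2 at an unadjusted p under 0.05; 4 of 6 and 0.11 without the 14 arrays), with summed signals of 37084 to 65574 in B and 4688 to 46431 in impaired rats and none at 0. Interneuron markers were higher at 7 of 9 (median 0.46), with Sst (0.90 ± 0.24) and Npy (0.67 ± 0.21) called, and at 6 of 9 without the 14 arrays (median 0.22, 1 called), with sums of 11419 to 17638 in B and 4269 to 13895 in impaired rats. Astrocyte markers were higher at 6 of 8 (median 0.42, 0 called, 2 at an unadjusted p under 0.05; 5 of 8 and 0.07 without the 14 arrays), with sums of 34795 to 52525 in B and 7245 to 49167 in impaired rats. Oligodendrocyte markers were higher at 7 of 9 (median 0.19, 0 called, 1 at an unadjusted p under 0.05; 4 of 9 and -0.06 without them), with sums of 6738 to 18489 and 4555 to 20530. Endothelial and mural markers were lower at 7 of 9 (median -0.33, 1 called; 7 of 9 and -0.20 without them), with sums of 2163 to 7665 in B and 2797 to 7251 in impaired rats and none at 0. Their part in the channel results was not tested; Kcnj8, the pore of the vascular ATP-sensitive channel, is known from pericytes and smooth muscle.

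B and unimpaired rats differed in 0 members in limma, where 0.0572% of all probe sets were called, and 3 had an unadjusted p under 0.05, against 7.17% of all. All 3 were higher in B rats: both probe sets of Kcna1, the Kv1.1 pore, and Kcnd3 (0.87 ± 0.32, adjusted p = 0.401). Kcna1 by X12589cds_s_at read 345.1 to 1382.5 (median 774) in B, 156.7 to 708.6 (median 396) in unimpaired and 305.9 to 892.1 (median 476) in impaired rats. The difference from unimpaired rats was 0.98 ± 0.26 (adjusted p = 0.210), with 15 of 16 B rats above the unimpaired mean. By M26161_at it was 0.97 ± 0.31 (adjusted p = 0.274), with signals of 36.2 to 1397.4 (median 429) in B and 112 to 482 (median 202) in unimpaired rats. Rat 82 was the lowest B rat at both probe sets.

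Without the 14 arrays, of which 1 was an unimpaired rat and none a B rat, Kcna1 by X12589cds_s_at was called (0.98 ± 0.23, adjusted p = 0.0200 in limma, range over the alternatives 0.00174 to 0.671; 1 member, 1.66% of all) and M26161_at was not (0.92 ± 0.31, adjusted p = 0.104). Kcna1 was also the member called above impaired rats in that fit. Over the other groups the medians of X12589cds_s_at were 209 (aged visible) to 468 (young hidden), and all groups overlapped with B rats.

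**Figure D5:**
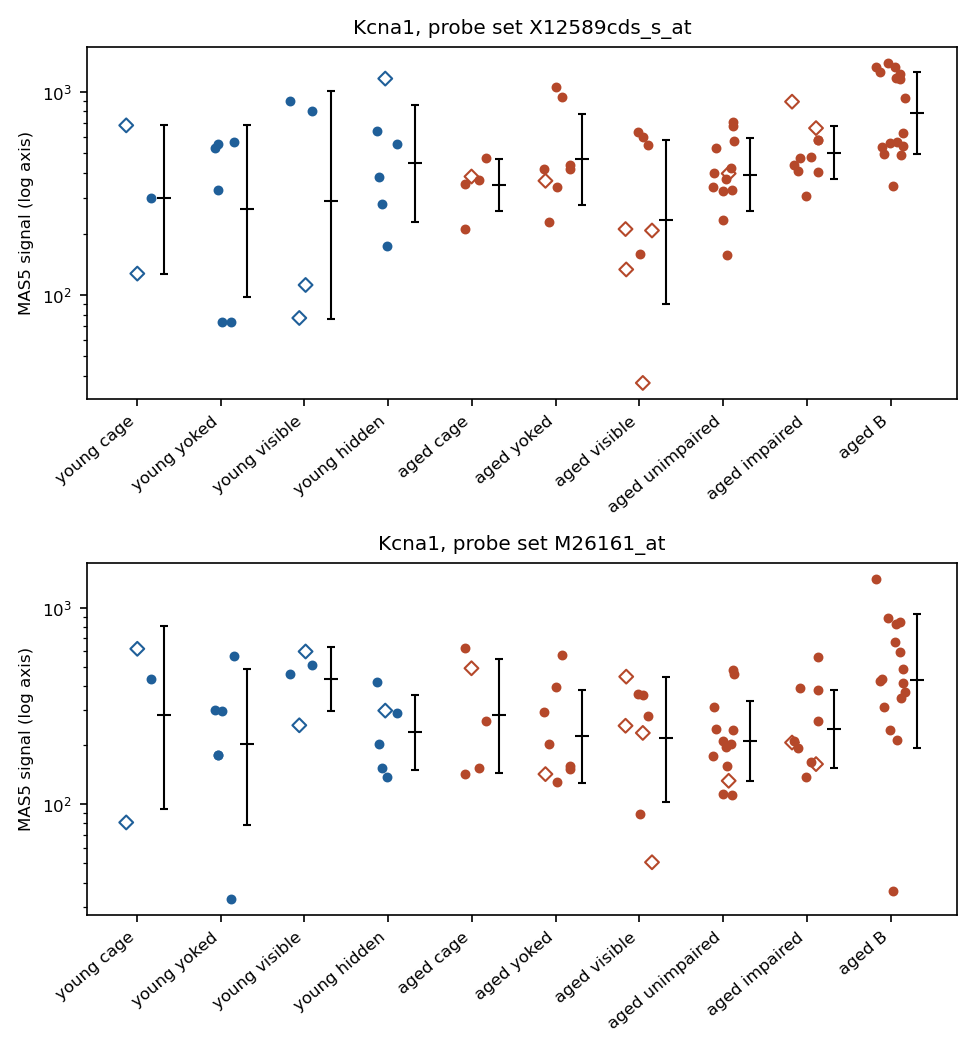
Signals of both Kcna1 probe sets in all groups, on log axes. Points are single rats, open diamonds low-correlation arrays and black bars mean ± SD of the log2 values turned back; the median of B rats is 774 at X12589cds_s_at, against 396 in unimpaired and 476 in impaired rats, and the ranges overlap.

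Proteins that bind, anchor or share current with these channels were counted from a list of 54 genes (calcium channel subunits, Hcn channels, ankyrins, Kv4 partners, anchoring proteins and ion pumps), of which 34 were on the array and 27 tested. With age limma called 0 in either direction, where 5.13% of all probe sets were called. At an unadjusted p under 0.05 there were 2, against 20.8% of all. Without the 14 arrays, where 13.9% of all were called, Akap5 was called higher (0.76 ± 0.25) and Cacna1a (-0.66 ± 0.20) and Cacna1b (-0.56 ± 0.14) lower. Between aged and young cage rats 17% of all probe sets were called, in the same young cage arrays as above. Among the 27, Akap5 (2.05 ± 0.62), an anchor of kinases at the synapse, and Clcn3 (1.62 ± 0.48), a chloride transporter of vesicles, were called higher in aged rats. The calcium channel genes Cacna1a (-1.67 ± 0.58), Cacna1e (-1.62 ± 0.59) and Cacnb1 (-1.18 ± 0.43) were called lower. Between B and impaired rats, where 12% of all probe sets were called, Cacnb2 (1.14 ± 0.24), a calcium channel beta subunit, was called higher. Dlg2 (-1.07 ± 0.26), the scaffold PSD-93 that clusters Kv1 channels, and Akap5 (-0.99 ± 0.29) were called lower, and the median over the 27 was 0.01. Without the 14 arrays (9.34% of all called) Cacnb2 and Dlg2 were still called and Akap5 was not.

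Members with textbook roles in CA1 that were not called in any of the 15 comparisons with all arrays include Kcnc1 and Kcnc2 (Kv3 pores of fast-spiking interneurons), Kcnq3 (an M-current pore), Kcnn1 (a small-conductance calcium-activated channel), Kcnh1 and Kcnj4. Kcnc1 had the least spread of all members, and its age difference was -0.17 ± 0.12 (adjusted p = 0.436, limma). Kcnq3 differed by -0.05 ± 0.20 with age and by -0.52 ± 0.26 between B and impaired rats (adjusted p = 0.155).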

How the data were processed

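CA1 RNA of 79 rats was hybridised to 1 array each. The deposited values are MAS5 signal intensity on a linear scale (MAS5 per the submitters' processing notes; its version is not given in the sources used here). Tested on the values, each array's mean after trimming 2% at each end was 500.1 to 501, as after global scaling. No pair of arrays held identical values. Gene symbols came from the platform annotation, all 102 members updated through their gene ID; none had several symbols.

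After 59 control probe sets were left out, log2(signal + 15), 15 being the 10th percentile of all values, entered limma (version 3.58.1, R 4.3.3; lmFit and eBayes with a trend) for the 5244 of 8740 probe sets left after dropping the 40% of lowest mean signal. Aged minus young was fitted with age and treatment as additive factors. Age within a treatment and the interaction used 1 mean per age and treatment, impaired and unimpaired rats both counting as hidden. All these age comparisons used 63 arrays. Other comparisons had 1 mean per group, over 44 aged arrays for learner and aged training comparisons, 60 aged for B comparisons and 19 for young ones. P-values were two-sided and adjusted by Benjamini-Hochberg over all 5244, and 15 comparisons were made. The fit was tested on simulated data. Array number limits the precision.

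Members, gene lists and comparisons were chosen with earlier results of these data known. Named are every member called, or the 3 smallest p where none was, and a textbook list. Alternatives were pseudocounts of 1 and 60, no filter or 60%, quantile normalization, median centring, array weights, 1 fit over 79 arrays, leaving out the 14 arrays of median correlation under 0.85, the 3′ to 5′ ratio as covariate, the gene's other probe sets and leaving out each array. P-values measure the spread between rats; scan dates were not used here.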

Additional observations from a re-analysis of the deposited data

Results flagged for a closer look

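The age difference of Kcnd2 by M59980_s_at differed between treatments, by an interaction test in limma with an adjusted p of 0.00711; it is the only member of 49 for which this test passed. It rests on the young cage rats 70 and 76, without either of which it did not pass.

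Among the 11 member probe sets called in any comparison, the levels of each were searched for a single rat far from the rest of its group, in groups of 4 to 10 rats (77 searches, of which chance flags about 1 in 20). There were 4 such rats, each the highest of its group. Kcnh4 read 700.4 in aged yoked rat 63, against 171.4 to 323.7 in the others, and 985.9 in young hidden rat 39, against 134.7 to 229.5. Kcnj1 by S78154_at read 1416.5 in aged yoked rat 63, against 218 to 452.5. Scn8a read 591.6 in young visible rat 65, against 148.2 to 174.2. All 4 values lie on arrays of low correlation with the rest.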

How the results depend on the processing

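Counts are of member probe sets called in limma, out of the 49 tested unless the filter differed. With no filter all 102 member probe sets were tested, among 8740 probe sets, and the 60% filter left 3496 in all. Counts under these 2 settings are therefore not on the scale of the others. The share of all probe sets called is not given beside each count. A change in a count alone is thus no result about the channel genes. Aged minus young gave 1, and 2 with the 60% filter, 0 under quantile normalization and under median centring, 8 with array weights and with 1 fit over 79 arrays, 9 without the low-correlation arrays and 3 with the 3′ to 5′ covariate. The interaction gave 1, and 0 under quantile normalization, median centring, without the low arrays and with the covariate, and 8 with weights. Aged minus young in cage rats gave 2, and 4 with pseudocount 60, with the 60% filter and without the low arrays, 17 with weights, 7 with 1 fit and 1 with the covariate. Young hidden minus cage gave 1, and 2 under quantile normalization, 11 with weights, 6 with 1 fit and 0 without the low arrays or with the covariate. B minus impaired gave 9, and 29 of 102 with no filter, 4 with the 60% filter, 2 under quantile normalization, 4 without the low arrays and 5 with the covariate. Comparisons with 0 gave, with weights, 3 (age in yoked), 4 (age in visible), 2 (age in hidden), 1 (aged hidden minus visible), 1 (aged hidden minus cage) and 2 (B minus unimpaired), and without the low arrays 1 each for age in yoked, aged hidden minus cage and B minus unimpaired. Chosen after seeing the data, median centring without the low arrays gave 8, 4 and 1 for age, age in cage and age in yoked, 0 for young hidden minus cage, 1 for B minus unimpaired and 3 for B minus impaired. Leaving out each array in turn gave 0 to 4 for age, 0 to 1 for the interaction, 2 to 5 for age in cage, 0 to 2 for young hidden minus cage, 0 to 12 for B minus impaired and 0 to 0 for every other comparison. The age count rose to 4 without young hidden 37, young yoked 59 or young visible 30, to 3 without impaired 83 or young hidden 39, and to 2 without aged yoked 63 or 93, aged visible 67, 68 or 97, impaired 8 or young cage 76; age in cage gave 5 without impaired 8, impaired 83 or aged visible 67; young hidden minus cage gave 2 without young hidden 39 or young cage 74; and B minus impaired gave 4 or 5 without impaired 50 or 87 or B rats 9, 11, 12, 13, 88 or 90. At the other probe set of Kcnd2 neither difference was called. Its estimates had the opposite sign, at -0.28 for age in cage rats and -0.40 for young hidden minus cage (adjusted p = 0.699 and 0.632 in limma). The cause was not tested. Of 148 values of the 14 called results under alternatives, 97 kept direction and call, 49 kept direction only and 2 had the opposite sign without a call. No paired analysis was possible because animal numbers are not shared between groups. Arrays of low correlation, 2 of 3 in young cage rats, limit every comparison with that group, and dim members are limited by background.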
